A study of Mus musculus with 12 samples.

Results

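CXC chemokines are small secreted proteins, and 10 of their genes were followed here in the RNA of sorted cardiac macrophages (Mφ): Cxcl1, Cxcl2, Cxcl3, Cxcl9, Cxcl10, Cxcl13, Cxcl14, Cxcl16 and the platelet factor genes Pf4 and Ppbp. The genes were chosen by their symbols, and all 10 were found among the 24445 genes listed and passed the filter on low counts, which kept 14608 genes. The cells were CD14+/CD64+ cells sorted by FACS from the hearts of 12 C57BL6/J mice, with 1 library per mouse and 4 mice per group. Before this gate the cells were enriched with an anti-CD45 antibody and gated on CD11b+ cells. Control (Ct) mice carried a saline pump. Mice with early concentric hypertrophy (ECH) carried a pump delivering isoproterenol, which stimulates β-adrenergic receptors, for 14 days. Mice with heart failure (HF) carried it for 28 days, and the dose was 30 mg/kg/day in both. How long each Ct mouse was infused was not stated, so saline against isoproterenol and any effect of infusion time cannot be told apart in the comparisons with Ct.

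Chemokines bind receptors on leukocytes and draw the cells along a gradient. Cxcl1, Cxcl2 and Cxcl3 encode ligands of CXCR2, the main chemoattractant receptor of neutrophils, and are induced in Mφ within hours of an inflammatory stimulus through NF-κB. Cxcl9 and Cxcl10 encode interferon-induced ligands of CXCR3, which guide activated T and NK cells. Cxcl13 encodes the ligand of CXCR5, which guides B cells, and Cxcl14 encodes a chemokine that many tissues make at rest. Cxcl16 encodes a ligand of CXCR6 that sits in the cell membrane and is released by the proteases ADAM10 and ADAM17. Pf4 (CXCL4) and Ppbp (CXCL7) encode proteins best known from the α-granules of platelets, and Pf4 is also used as a marker of tissue-resident Mφ.

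On the mouse genome build GRCm38, 8 of the 10 genes lie on chromosome 5, Cxcl14 lies on chromosome 13 and Cxcl16 on chromosome 11. Ppbp (chr5:90768518-90770063) and Pf4 (chr5:90772435-90773383) are neighbours on the plus strand, separated by 2371 bp. Cxcl3 (chr5:90786103-90789600), Cxcl1 (chr5:90891241-90893115) and Cxcl2 (chr5:90903871-90905938) follow on the same strand, and the stretch from Ppbp to Cxcl2 spans 137421 bp. Cxcl9 (chr5:92321347-92328079) and Cxcl10 (chr5:92346638-92348889) lie on the minus strand, 18558 bp apart, and Cxcl13 lies at chr5:95956951-95961068. RefSeq promoters (build GRCm38.p6, 250 bases before to 50 after the start) were at hand for 9 of the 10 genes, without Cxcl16. The longest run of letters that the promoters of Cxcl1, Cxcl2 and Cxcl3 share before their starts is GGGAATTTCCC, 11 letters that hold the form of an NF-κB site, and it lies from -71 to -61, from -97 to -87 and from -73 to -63 relative to the start. Searched on both strands, it was present in 14 of all 32851 promoters (0.0426%), a share given as a description since the letters were taken from these 3 genes. The 3 windows are shown because these genes share the run, and capitals mark it, in chr5:90891135-90891244, chr5:90903789-90903898 and chr5:90785991-90786100, all on the plus strand, where the first and the second window run into the first exon of the GENCODE gene model.
Cxcl1: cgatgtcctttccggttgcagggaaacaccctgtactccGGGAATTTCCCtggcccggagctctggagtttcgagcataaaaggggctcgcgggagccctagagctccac
Cxcl2: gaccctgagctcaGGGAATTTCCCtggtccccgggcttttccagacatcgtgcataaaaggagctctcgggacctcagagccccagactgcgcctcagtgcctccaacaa
Cxcl3: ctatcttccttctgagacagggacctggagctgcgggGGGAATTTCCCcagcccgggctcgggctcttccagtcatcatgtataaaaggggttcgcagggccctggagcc
The letters GAAANNGAAA (both strands searched), the form of an interferon-stimulated response element, were present in the promoters of Cxcl10 (from -213 to -204) and Cxcl14 (from -172 to -163) and in 3.44% of all promoters. The window of Cxcl10 (chr5:92348890-92349139, minus strand, written from 5′ to 3′ of the gene) has the match in capitals.
Cxcl10: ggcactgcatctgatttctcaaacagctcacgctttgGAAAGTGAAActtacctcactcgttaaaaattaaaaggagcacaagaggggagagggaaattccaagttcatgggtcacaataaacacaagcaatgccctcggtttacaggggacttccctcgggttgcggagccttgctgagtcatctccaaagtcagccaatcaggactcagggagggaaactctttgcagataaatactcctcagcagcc
The windows of the neighbours Pf4 (chr5:90772325-90772434) and Ppbp (chr5:90768408-90768517), both on the plus strand, held no match to GGGAATTTCCC or GAAANNGAAA and are shown because the levels of these genes moved together between mice.
Pf4: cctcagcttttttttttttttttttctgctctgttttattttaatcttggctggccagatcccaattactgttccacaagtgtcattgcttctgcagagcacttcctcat
Ppbp: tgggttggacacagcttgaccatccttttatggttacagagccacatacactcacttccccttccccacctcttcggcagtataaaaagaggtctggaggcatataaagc
The letters TATAAA, searched on both strands and present in 13.6% of all promoters, were found in 4 of the 9 promoters, from -30 to -25 and from -8 to -3 of Ppbp, from -30 to -25 of Cxcl3, from -195 to -190 of Cxcl9 and from -46 to -41 of Cxcl13. No other match overlapped the matches of the first pair of motifs. Of the forms of an NF-κB site only the exact 11 letters were searched for, so other forms may stand unmarked in the windows. A match describes letters in the window, and binding was not measured.

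The libraries held between 88466559 and 111180291 counts. Levels are given as CPM, the counts relative to a library's total after TMM scaling, and levels of different genes are set side by side as CPM per kb of exon. A count of 3 corresponded to 0.0259 to 0.0349 CPM, a limit that covers counting error only. The genes of the surface proteins of the last gate were read in each library, Cd14 at 1713 to 2993 CPM and Fcgr1, which encodes CD64, at 71.5 to 182 CPM. Csf1r, the receptor gene for the Mφ growth factor and no part of the gate, lay between 2619.5 and 5297 CPM. Of a list of 10 Mφ and leukocyte genes that holds these 3, 0 were called, and their sum of 22364 to 32841 CPM was mostly Lyz2 (12791 to 21913 CPM). Markers of other cells were also read. The sum of 6 B cell markers lay between 118 and 506 CPM in Ct against 39.1 to 89.5 CPM in ECH and 56.2 to 87.95 CPM in HF. Of these 6 markers, 2 were called lower in ECH and 2 in HF than in Ct, where 0.356% and 0.377% of all genes were called in either direction. The sum of 10 neutrophil markers lay between 428 and 1816 CPM in Ct, 193 and 713 CPM in ECH and 150.2 and 1348 CPM in HF. The sum of 6 markers of Ly6C-high monocytes lay between 291 and 593 CPM in Ct, 517 and 690.02 CPM in ECH and 539 and 906 CPM in HF, and that of 6 dendritic cell markers between 76.6 and 184, 73.1 and 91.8, and 56.04 and 83.5 CPM. Single markers went both ways. Of the monocyte markers 4 were higher and 2 lower in ECH than in Ct, and 3 higher and 3 lower in HF. Of the dendritic cell markers 3 were higher and 3 lower in ECH than in Ct, and 2 higher and 4 lower in HF. Sums of 8 endothelial markers (12.9 to 34.6 CPM over all libraries) and of 7 cardiomyocyte markers (47.2 to 173 CPM) overlapped between the groups. Of the neutrophil, monocyte, dendritic cell, endothelial and cardiomyocyte lists 0 genes were called. In such bulk samples fewer cells of a type and less RNA per cell cannot be told apart. Library numbers in the labels run from 1 to 6 over Ct 1 to 4 with ECH 1 and 2, and again over HF 1 to 4 with ECH 3 and 4. These sets, called A and B here, were inferred from the numbers and are stated neither in the labels nor in the methods, and no set holds both Ct and HF mice. The titles also carry a code of unstated meaning, whose first part is shared by ECH 3 and 4, by HF 1 and 2, by Ct 1 and 2 and by Ct 3 and 4, while ECH 1 and 2 differ in it. Ct 2 and HF 1 had the fewest genes detected (14489 and 13600, against 15054 to 15940 in the other libraries).

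The level of Pf4 was by far the highest of the 10 genes, and Ppbp, Cxcl1 and Cxcl14 had HF libraries that all lay above the Ct libraries. None of the 10 genes (0 of 10) was called by edgeR's quasi-likelihood test, with 0.05 as the limit on the false discovery rate and 2 as the least fold change, in ECH against Ct, in HF against Ct or in HF against ECH. The background share called was 0.356% of 14608 genes in ECH against Ct, 0.377% in HF against Ct and 0% in HF against ECH. At an unadjusted p under 0.05 the genes numbered 0 in ECH against Ct, 2 in HF against Ct (Ppbp and Pf4, both higher) and 1 in HF against ECH (Pf4, higher), where 11.9%, 16.1% and 7.98% of all genes did so. With DESeq2 the counts called were 0, 1 (Ppbp) and 0, where 1.7%, 2.31% and 0.322% of all genes were called. Without Ct 2 and HF 1 the counts called were again 0, 0 and 0. The comparisons with Ct share the Ct libraries.

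**Figure D1:**
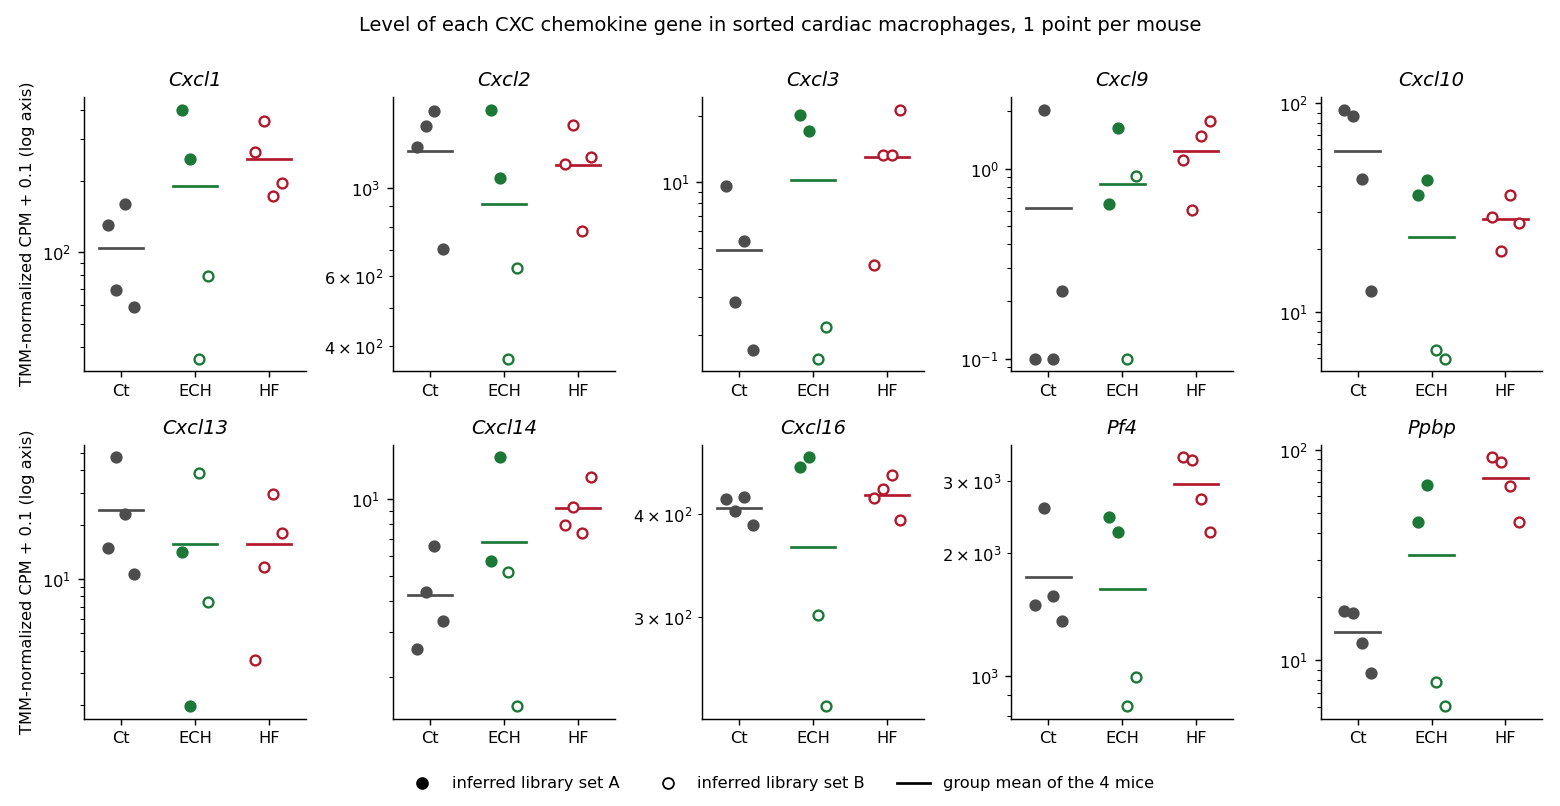
TMM-normalized CPM (with 0.1 added, log axis) of each of the 10 genes in the 12 mice, 1 point per mouse, with filled points for inferred library set A, open points for set B and a line at the group mean. The HF points of Cxcl1, Cxcl14 and Ppbp all lie above the Ct points, and for Cxcl1, Cxcl2, Cxcl3, Cxcl10, Cxcl14, Cxcl16, Pf4 and Ppbp the points of ECH 1 and 2 lie above those of ECH 3 and 4.

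Per kb of exon, Pf4 was the ninth of 14094 ranked genes in mean level over the 12 libraries (2922 CPM per kb). Its group means were 2428 CPM per kb in Ct, 2265 in ECH and 4073 in HF. Cxcl2 came next with 531 CPM per kb over all libraries, and its range did not meet that of Pf4 in any group. Cxcl16 (132 CPM per kb) and Cxcl1 (96.5 CPM per kb) followed. They were separate in Ct, where Cxcl16 lay between 129 and 139 and Cxcl1 between 31.2 and 84.9 CPM per kb, and their ranges overlapped in ECH and in HF. Ppbp had a mean of 36.3 CPM per kb and changed its place in the order. In Ct, at 12.5 CPM per kb, its mean was below those of Cxcl10 and Cxcl13 with ranges that overlapped, and in HF, at 67.2 CPM per kb, it stood above them with ranges that did not meet. Cxcl10 (16.2 CPM per kb) and Cxcl13 (15.9 CPM per kb) had overlapping ranges in each group. Cxcl14 (3.62 CPM per kb) and Cxcl3 (2.65 CPM per kb) also overlapped in each group, and Cxcl9, at 0.264 CPM per kb, came last, with a range that met that of Cxcl3 in Ct and ECH but not in HF.

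**Figure D2:**
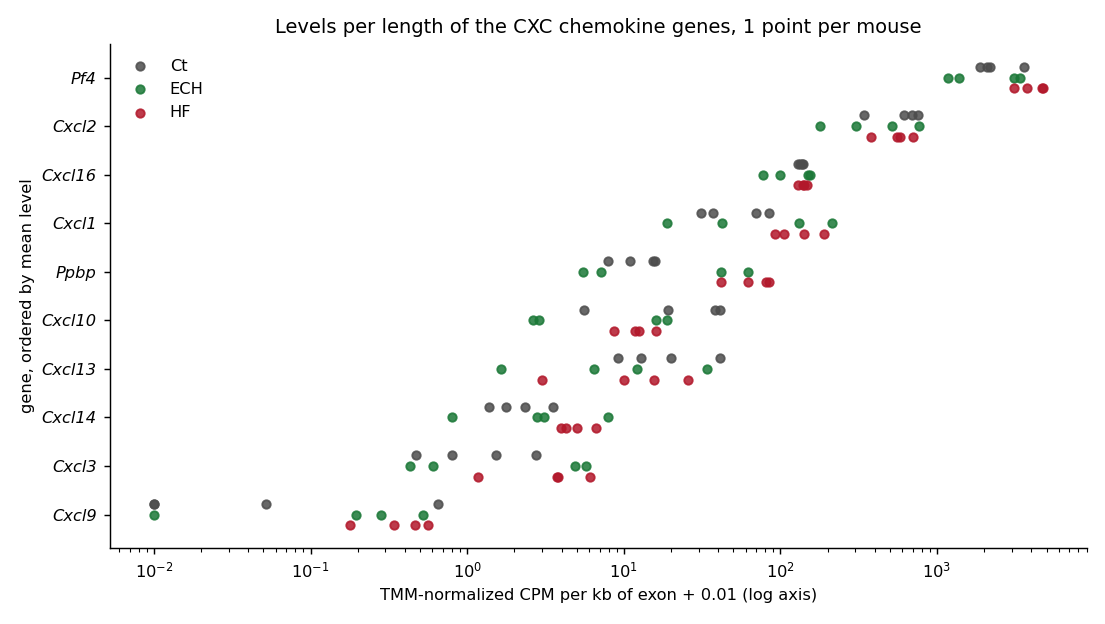
TMM-normalized CPM per kb of exon (with 0.01 added, log axis) for each gene in the order of its mean over the 12 libraries, with 1 point per mouse coloured by group. The Pf4 points lie above the Cxcl2 points, and the Ppbp points of HF lie between 41.7 and 84.98 CPM per kb against 7.87 to 15.7 in Ct.

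Ppbp, which encodes the precursor of the neutrophil-activating peptide CXCL7, showed the widest separation between HF and Ct. Its levels were 17.04, 16.6, 11.9 and 8.52 CPM in Ct 1 to 4 and 92.0, 87.0, 67.1 and 45.2 CPM in HF 1 to 4. In ECH 1 to 4 they were 45.2, 67.5, 7.78 and 5.93 CPM. The lowest HF library was above the highest Ct library, while ECH 1 and 2 reached the HF levels and ECH 3 and 4 lay below each Ct library. Mean levels were 13.5 ± 4.06 (Ct), 31.6 ± 30.0 (ECH) and 72.8 ± 21.4 CPM (HF; SD, n = 4). HF was 5.39-fold higher than Ct (log2 fold change 2.43, SE 0.64, 95% interval 1.05 to 3.81), with an edgeR adjusted p of 0.117. The gene passed the threshold with DESeq2 (adjusted p = 0.0162) and in the edgeR fit of the Ct and HF libraries alone (adjusted p = 0.0124, where 0.297% of 13803 genes were called). Leaving out each library in turn gave log2 fold changes of 2.26 to 2.60 in HF against Ct. In ECH against Ct the log2 fold change of Ppbp was 1.22 (SE 0.61, adjusted p = 0.466), and in HF against ECH it was 1.20 (SE 0.61, adjusted p = 0.652). Without ECH 2 these were 0.54 and 1.89.

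Pf4 encodes platelet factor 4, a chemokine that binds heparin and other glycosaminoglycans. Its levels were 1494, 2572, 1571 and 1365 CPM in Ct 1 to 4 and 3423, 3362, 2711 and 2250.2 CPM in HF 1 to 4. The ECH libraries 1 to 4 held 2441, 2250.1, 845 and 997 CPM. Ct 2 lay above the lowest HF library, so that Ct and HF overlapped by this library, and ECH again held 2 high and 2 low mice. Mean levels were 1750.3 ± 554 (Ct), 1633 ± 828 (ECH) and 2937 ± 559.6 CPM (HF; SD, n = 4). In HF against Ct the log2 fold change was 0.75 (SE 0.33, 95% interval 0.04 to 1.45), with an adjusted p of 0.288. In HF against ECH it was 0.85 (SE 0.33, 95% interval 0.14 to 1.55), with an adjusted p of 0.564. In ECH against Ct it was -0.10 (SE 0.33, 95% interval -0.80 to 0.60), and the sign turned when ECH 3, ECH 4 or Ct 2 was left out.

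The defining markers of platelets were low beside these genes. The sum of 11 platelet markers lay between 3.06 and 6.33 CPM in Ct, 1.80 and 3.37 CPM in ECH and 1.79 and 7.56 CPM in HF, and 5 of the 11 stayed under 1 CPM in each library. The highest single value was 3.66 CPM, of the integrin gene Itgb3 in a Ct library. Itga2b, which encodes the αIIb chain of the platelet fibrinogen receptor, lay between 0 and 1.94 CPM over the 12 libraries. Of the 6 markers that passed the filter, 0 were called in any comparison and 0 had an unadjusted p under 0.05, with a median log2 fold change in HF against Ct of 0.17 against -0.01 over all genes. The sum of the 11 markers was highest of the 12 libraries in HF 1, at 7.56 CPM, where Ppbp (92.0 CPM) and Pf4 (3423 CPM) were highest too. It was lowest in HF 2, at 1.79 CPM, where Ppbp stood at 87.0 CPM and Pf4 at 3362 CPM. The part of platelets in the levels of Pf4 and Ppbp was not tested. The markers of resident Mφ were read at 8141 to 12748 CPM in sum in Ct, 10241 to 12476 CPM in ECH and 9848 to 11962 CPM in HF, and in ECH against Ct 4 of the 8 were higher and 4 lower (median log2 fold change 0.0004). Timd4, a gene of long-lived resident Mφ, was the 1 of the 8 that was called, where 0.356% of all genes were, and was lower in ECH than in Ct (log2 fold change -1.62, SE 0.30, adjusted p = 0.0341). Cd163, a scavenger receptor gene, had a log2 fold change of 0.72 (SE 0.24, adjusted p = 0.241).

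**Figure D3:**
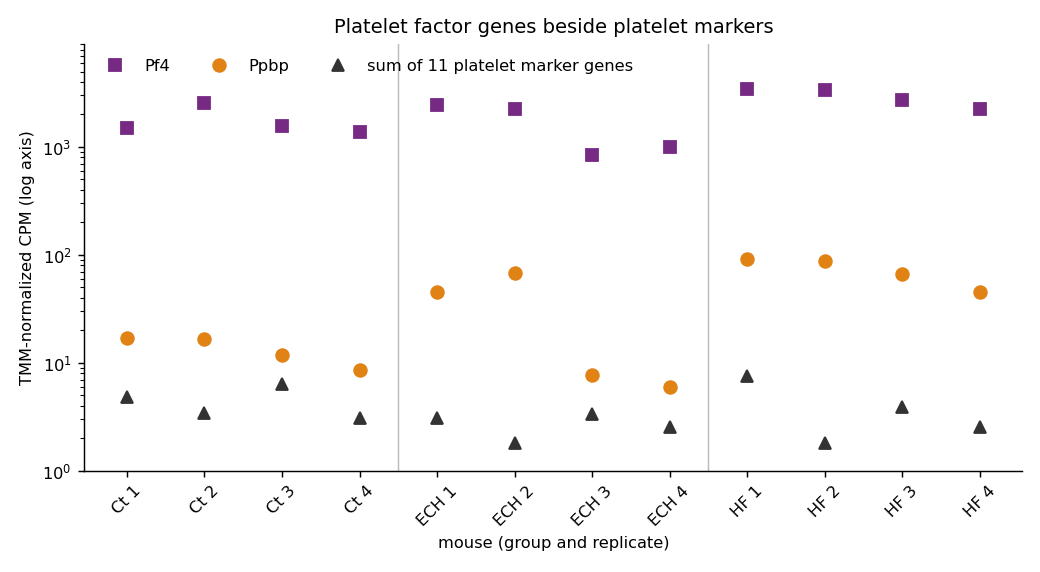
TMM-normalized CPM (log axis) of Pf4 (squares) and Ppbp (circles) and the sum of 11 platelet marker genes (triangles) in each of the 12 mice, in the order Ct, ECH, HF. The sum of the markers stays between 1.79 and 7.56 CPM, while Ppbp runs from 5.93 to 92.0 CPM and Pf4 from 845 to 3423 CPM.

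Pf4 and Ppbp moved together between mice. Over the 12 libraries Pearson's r of their log2 levels was 0.90 and Spearman's rho 0.86 (permutation tests with adjusted p = 0.00055 and 0.00295, over 5 pairs of genes). The permutations of all 5 pairs ran without regard to group or inferred set. Their p values thus do not separate shared group or set differences from movement between mice. Without ECH 3 and ECH 4, the libraries farthest from the median, r was 0.86, and after the group means were removed it was 0.90. Within the 6 libraries of set A r was 0.70 and within the 6 of set B 0.99. The ratio within a library, which does not depend on scaling, was not constant. Ppbp made 1.14, 0.646, 0.758 and 0.624 counts per 100 counts of Pf4 in Ct 1 to 4, and 2.69, 2.59, 2.47 and 2.01 in HF 1 to 4. In ECH 1 to 4 it made 1.85, 2.998, 0.921 and 0.594. The HF ratios lay above each Ct ratio, and the ECH ratios ran from below the lowest Ct ratio in ECH 4 to above the highest HF ratio in ECH 2.

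Among the neutrophil attractants, Cxcl1 was the gene whose HF libraries lay above Ct, and Cxcl2, the most abundant of the 3, was not. Cxcl1 stood at 130.2, 69.2, 159 and 58.6 CPM in Ct 1 to 4 and at 264, 357, 173 and 197 CPM in HF 1 to 4. ECH 1 to 4 stood at 399.7, 248, 35.6 and 79.8 CPM. The highest value of the gene was in ECH 1 and the lowest in ECH 3, so the ECH range enclosed both other groups. Mean levels were 104 ± 48.4 (Ct), 191 ± 167 (ECH) and 248 ± 82.5 CPM (HF; SD, n = 4). The log2 fold change in HF against Ct was 1.25 (SE 0.58, 95% interval -0.01 to 2.51, adjusted p = 0.318), a 2.37-fold difference. In ECH against Ct it was 0.87 (SE 0.58, 95% interval -0.38 to 2.12, adjusted p = 0.606), and in HF against ECH it was 0.38 (SE 0.58, adjusted p = 0.947). Without ECH 1 these were 0.22 and 1.03.

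Cxcl2, which encodes MIP-2, stood at 1266, 1435, 1566 and 704 CPM in Ct 1 to 4 and at 1148, 1445, 779 and 1198 CPM in HF 1 to 4. In ECH 1 to 4 it stood at 1576, 1061, 372 and 631 CPM. The groups overlapped, and ECH 3 and ECH 4 held the lowest levels of the 12. The log2 fold change was -0.45 in ECH against Ct (SE 0.37, 95% interval -1.26 to 0.36) and -0.12 in HF against Ct (SE 0.37, 95% interval -0.93 to 0.68). In this fit the intervals exclude a 2-fold rise in both comparisons and a 2-fold fall in HF against Ct alone. With the inferred set fitted as a covariate the sign turned in HF against Ct, to a log2 fold change of 1.27 (adjusted p = 0.203). Cxcl3 was the weakest of the 3, at 9.53, 2.75, 5.29 and 1.61 CPM in Ct 1 to 4, 20.02, 16.98, 1.46 and 2.07 CPM in ECH 1 to 4 and 4.07, 13.2, 13.1 and 21.3 CPM in HF 1 to 4. Of the HF libraries, HF 1 alone lay within the Ct range. Its log2 fold change was 1.43 in HF against Ct (SE 0.81, 95% interval -0.32 to 3.18, adjusted p = 0.414) and 1.08 in ECH against Ct (SE 0.80, adjusted p = 0.649). Cxcl2 and Cxcl3 share 101 stretches of 75 bases in their transcripts, 4.57% of those of Cxcl2 and 2.78% of those of Cxcl3, and how reads with more than 1 place were counted was not stated, so that the low counts of Cxcl3 are uncertain beside the high ones of Cxcl2.

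Relative to Cxcl2, both other genes stood higher in HF than in most Ct libraries. Cxcl1 made 10.3, 4.82, 10.2 and 8.32 counts per 100 counts of Cxcl2 in Ct 1 to 4 and 23.02, 24.7, 22.2 and 16.4 in HF 1 to 4. In ECH 1 to 4 it made 25.4, 23.4, 9.55 and 12.6. The Ct and HF ratios did not overlap, and ECH 1 and 2 lay at HF levels while ECH 3 lay within the Ct range. Cxcl3 made 0.191 to 0.752 counts per 100 counts of Cxcl2 in Ct, 0.329 to 1.6002 in ECH and 0.354 to 1.78 in HF, with overlap between the groups. Cxcl1 and Cxcl3 moved together over the 12 libraries (r = 0.84, rho = 0.81, permutation tests with adjusted p = 0.00217 and 0.00570), and without ECH 3 and Ct 4 r was 0.73. For Cxcl1 and Cxcl2 r was 0.72 and rho 0.59 (permutation tests with adjusted p = 0.0129 and 0.0706), and r was 0.38 without ECH 3 and Ct 4, on which the pooled r thus rested in part. For Cxcl2 and Cxcl3 r was 0.60 and rho 0.57 (permutation tests with adjusted p = 0.0436 and 0.0706), and r was 0.28 without ECH 3 and ECH 4. Within set A r was 0.51, 0.95 and 0.47 for Cxcl1 with Cxcl2, Cxcl1 with Cxcl3 and Cxcl2 with Cxcl3, and within set B it was 0.97, 0.76 and 0.77. After the group means were removed r was 0.92, 0.80 and 0.75 for the same pairs.

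**Figure D4:**
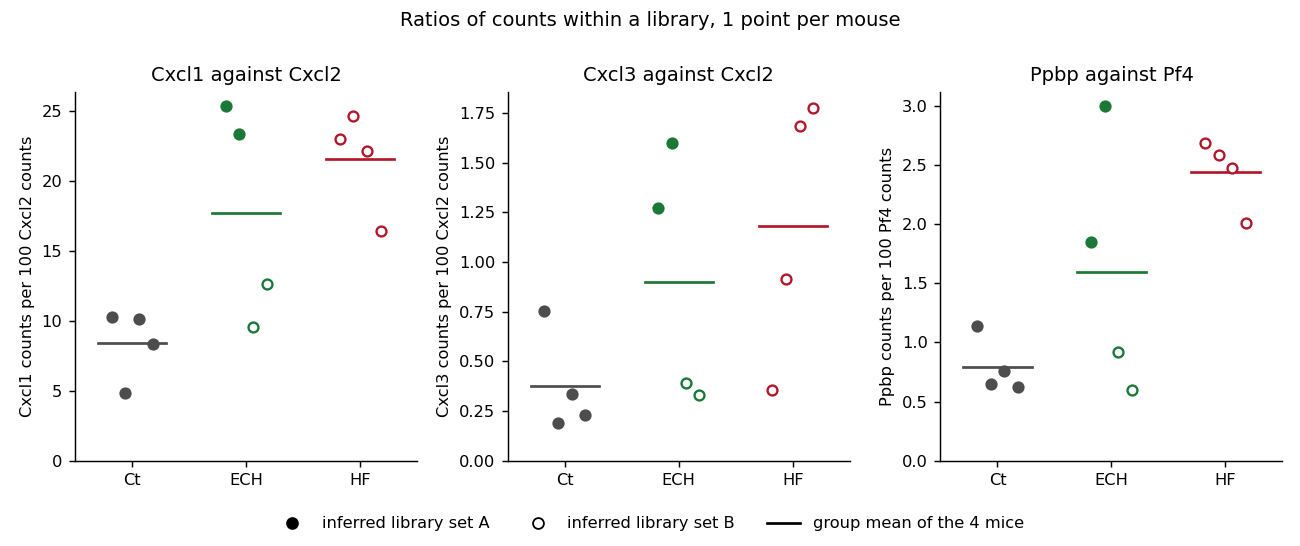
Counts of Cxcl1 and of Cxcl3 per 100 counts of Cxcl2, and of Ppbp per 100 counts of Pf4, in each of the 12 mice (linear axes from 0, filled points for inferred set A, open points for set B, lines at the group means). The HF points of Cxcl1 against Cxcl2 (16.4 to 24.7) and of Ppbp against Pf4 (2.01 to 2.69) lie above all Ct points (4.82 to 10.3 and 0.624 to 1.14), and the ECH points split into a high and a low pair.

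Most genes of the NF-κB response outside the family had lower levels in the isoproterenol groups, without a call. Of 16 such genes, 0 were called in either comparison with Ct, and 14 in ECH and 12 in HF had a lower mean level in the fit, with median log2 fold changes of -0.40 and -0.24 against 0.01 and -0.01 over all genes. At an unadjusted p under 0.05, 6 were lower in ECH and 5 in HF, where 5.89% and 8.72% of all genes were, and 0 were higher. Il1b, which encodes interleukin-1β, lay between 669 and 1357 CPM in Ct, 255 and 1022 CPM in ECH and 553 and 1171 CPM in HF. Tnf, which encodes tumour necrosis factor and was chosen after its values were seen, had higher means in ECH (150 ± 91.7 CPM) and HF (161 ± 57.6 CPM) than in Ct (114 ± 29.6 CPM; SD, n = 4). It stood at 141, 136, 101 and 79.1 CPM in Ct 1 to 4, at 258, 187, 50.5 and 102 CPM in ECH 1 to 4 and at 159, 242, 112 and 130 CPM in HF 1 to 4. ECH 1 and 2 and HF 1 and 2 lay above each Ct library and ECH 3 below each. Its adjusted p was 0.759 in ECH and 0.598 in HF against Ct. Of 13 genes known to rise while tissue is dissociated, 13 had a lower level in ECH and 13 in HF than in Ct, 0 of them called, with 8 in each at an unadjusted p under 0.05 (5.89% and 8.72% of all genes, as above) and medians of -0.68 and -0.74. Their sum ran from 41289 to 54687 CPM in Ct, 18531 to 42307 CPM in ECH and 20453 to 34857 CPM in HF. The sum was lowest in ECH 3, the library with the lowest Cxcl1, Cxcl2 and Cxcl3 levels. In HF 3 the sum was 20453 CPM, while Cxcl1 stood there at 173 CPM, above each Ct library. The part of dissociation in the levels of these genes was not tested.

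The interferon-induced ligand gene Cxcl10 was lower in each isoproterenol library than in Ct 1 to 3, by a narrow gap for Ct 3, but Ct itself spread widely. It stood at 92.9, 86.6, 43.4 and 12.4 CPM in Ct 1 to 4, at 36.3, 42.6, 6.43 and 5.87 CPM in ECH 1 to 4 and at 28.3, 19.4, 36.3 and 26.5 CPM in HF 1 to 4. Ct 4 lay below each HF library, so the groups overlapped. The log2 fold change was -1.37 in ECH against Ct (SE 0.67, 95% interval -2.80 to 0.07, adjusted p = 0.447) and -1.09 in HF against Ct (SE 0.66, 95% interval -2.52 to 0.34, adjusted p = 0.449). The sign in HF against Ct turned when the inferred set was fitted as a covariate, to 1.59 (adjusted p = 0.371), and within set B the gene was called higher in HF than in ECH (2.17, adjusted p = 0.00932). Cxcl9, its neighbour on chromosome 5, had 0 counts in Ct 1, Ct 3 and ECH 3, which allows up to 0.0300, 0.0303 and 0.0269 CPM there. It stood at 1.94 CPM in Ct 2, at 0.126 CPM in Ct 4, at 0.554, 1.54 and 0.813 CPM in ECH 1, 2 and 4 and at 1.005, 0.508, 1.38 and 1.67 CPM in HF 1 to 4. The gene was detected in 4 of 4 HF libraries, and its log2 fold change in HF against Ct was 1.14 (SE 1.72, 95% interval -2.58 to 4.86), too wide to read a direction, and 4.72 without Ct 2. Cxcl9 and Cxcl10 had a Pearson r of 0.16 and a rho of 0.11 over the 12 libraries (permutation tests with adjusted p = 0.626 and 0.730). Among 15 genes of the interferon-γ axis, 0 were called in any comparison, and the sums overlapped between the groups (2157 to 2538 CPM in Ct, 2086 to 2491 in ECH, 2037 to 2232 in HF). Irf1, which encodes an interferon-induced transcription factor, had a log2 fold change of -0.77 in both comparisons with Ct (SE 0.33, adjusted p = 0.377 in ECH and 0.282 in HF).

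The last 3 genes are known for roles in tissue at rest. Cxcl14 stood at 2.49, 4.23, 6.44 and 3.22 CPM in Ct 1 to 4, at 5.63, 14.5, 5.10 and 1.44 CPM in ECH 1 to 4 and at 7.83, 9.20, 7.28 and 12.05 CPM in HF 1 to 4. Each HF library lay above each Ct library, by a narrow gap between Ct 3 and HF 3. The log2 fold change was 1.15 in HF against Ct (SE 0.54, 95% interval -0.02 to 2.32, adjusted p = 0.323) and 2.77 with the inferred set fitted as a covariate (adjusted p = 0.115). Fibroblasts also make Cxcl14 in many tissues. The sum of 8 fibroblast markers lay between 29.9 and 195 CPM in Ct, 90.7 and 469 CPM in ECH and 82.4 and 250.4 CPM in HF. In the fit 8 of 8 were higher in HF and 7 of 8 in ECH than in Ct. In HF against ECH 7 of 8 were lower, and 0 were called in any comparison. The part of fibroblasts in the level of Cxcl14 was not tested. Cxcl13 stood at 14.7, 47.3, 22.9 and 10.6 CPM in Ct 1 to 4, at 14.0, 1.87, 38.8 and 7.36 CPM in ECH 1 to 4 and at 3.44, 11.5, 29.4 and 17.9 CPM in HF 1 to 4. It varied more between mice of a group than between the groups, with a log2 fold change of -0.62 in ECH against Ct (SE 0.78) and of -0.62 in HF against Ct (SE 0.78). With the inferred set fitted as a covariate these were -1.59 (adjusted p = 0.740) and -2.16 (adjusted p = 0.485), and without ECH 3 the value in ECH against Ct was -1.62. Without Ct 2 they were -0.049 and -0.046. It was also the gene that ran against the others in ECH, with its lowest level in ECH 2 and its highest ECH level in ECH 3.

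Cxcl16 was the steadiest of the 10 genes. It stood at 417, 404, 420.1 and 388 CPM in Ct 1 to 4 and at 419, 429, 446 and 393 CPM in HF 1 to 4. ECH 1 to 4 stood at 456, 469, 301 and 234 CPM, the pair of highest and the pair of lowest values of the 12 libraries. The log2 fold change in HF against Ct was 0.05 (SE 0.19, 95% interval -0.35 to 0.46). With the inferred set fitted as a covariate it was 0.84 (adjusted p = 0.0455), a difference under 2-fold and so not called. Of its sheddases, Adam10 had a log2 fold change of 0.59 in ECH against Ct (SE 0.23, adjusted p = 0.331) and Adam17 of 0.14 (SE 0.21, adjusted p = 0.843). Cxcl16 (chr11:70453983-70459984, minus strand) overlaps Zmynd15 on the other strand, with 15.4% of its stretches of 75 bases shared, and the strand setting of the counting was not stated. Zmynd15 was read at 36.0 to 71.5 CPM in Ct, 34.3 to 66.3 CPM in ECH and 39.9 to 61.2 CPM in HF. Cxcl10 overlaps Art3 in the same way, with 2.47% of its stretches, and Art3 was read at 0.420 to 1.58 CPM in Ct, 0.251 to 1.93 CPM in ECH and 0 to 0.231 CPM in HF.

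Set side by side, the 10 genes leaned upward in HF without passing the test. In HF against Ct 7 of 10 had a log2 fold change above 0, with a median of 0.94 against -0.01 over all genes, and 3 of 10 (Ppbp, Cxcl1 and Cxcl14) had HF libraries all above the Ct libraries, where 4.59% of all genes tested did so. In ECH against Ct 5 of 10 were above 0 (median 0.20, against 0.01 over all genes), and 0 of 10 had groups that did not overlap, where 7.97% of all genes did in either direction. In HF against ECH 10 of 10 were above 0, Cxcl13 by 0.004, with a median of 0.36 against -0.02 over all genes, and 0 of 10 had groups that did not overlap, where 6.92% of all genes did. The genes share mice and in part move together, so their signs are not independent of each other.

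**Figure D5:**
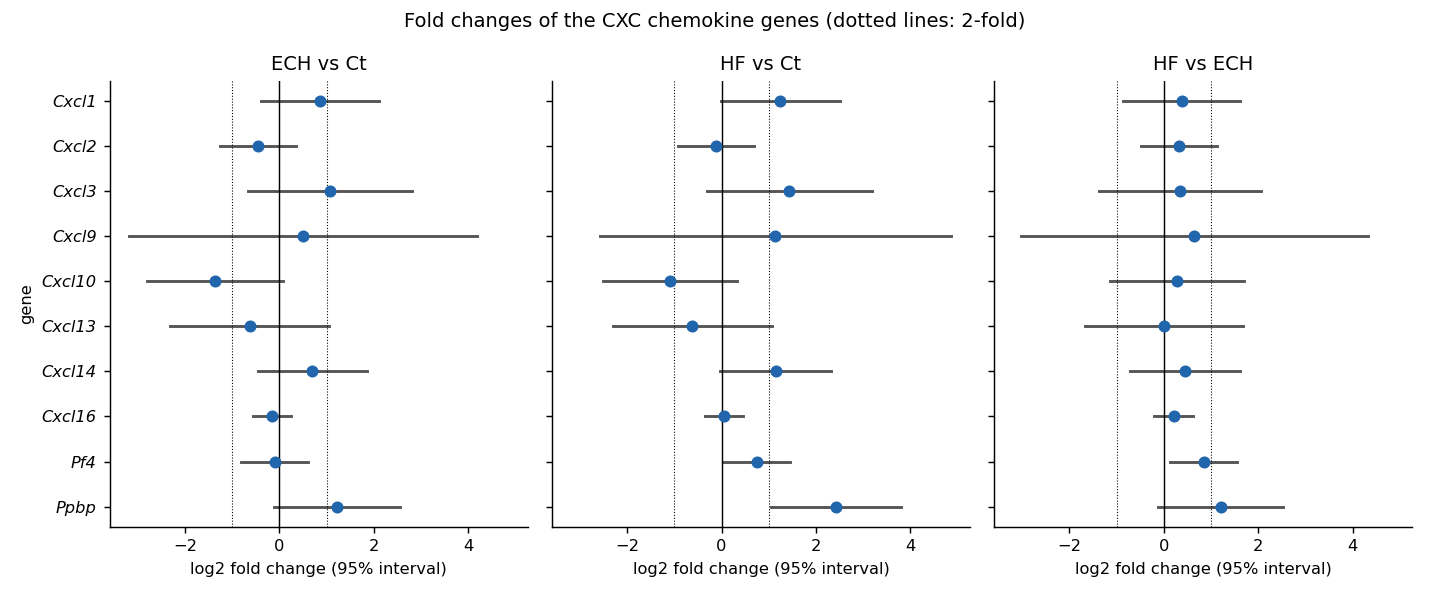
Log2 fold changes (points) with 95% intervals (lines) of the 10 genes in ECH against Ct, HF against Ct and HF against ECH, from edgeR's fit of all 12 libraries, with dotted lines at a 2-fold change. The intervals of Ppbp and Pf4 in HF against Ct and of Pf4 in HF against ECH lie above 0, and the interval of Cxcl16 in each comparison lies within a 2-fold change.

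The spread within ECH followed the inferred library sets for most of these genes. In 8 of 10 (not Cxcl9 or Cxcl13) ECH 1 and 2, of set A, both lay above ECH 3 and 4, of set B, where 26.6% of all genes tested did so. Within set B, HF 1 to 4 lay above ECH 3 and 4 for 8 of the 10 genes, where 16.7% of all genes tested did so and 18% lay below. In the fit of these 6 libraries alone 5 of 10 were called, against 2.49% of 14864 genes: Cxcl1 (log2 fold change 2.10, adjusted p = 0.0308), Cxcl3 (2.87, adjusted p = 0.0481), Cxcl10 (2.17, adjusted p = 0.00932), Pf4 (1.67, adjusted p = 0.00704) and Ppbp (3.41, adjusted p = 0.00393). That fit rests on 2 ECH mice. Within set A, ECH 1 and 2 lay above Ct 1 to 4 for Cxcl1, Cxcl3, Cxcl16 and Ppbp, 4 of 10 where 10.3% of all genes did, but 0 of 10 were called and 0.00674% of 14838 genes were, with Ppbp at a log2 fold change of 2.05 (adjusted p = 0.197). With the set as a covariate for all 12 libraries, Ppbp was called in ECH against Ct (log2 fold change 2.06, adjusted p = 0.0275), where 0.151% of all genes were. In HF against Ct Cxcl1, Cxcl3, Pf4 and Ppbp were called, with log2 fold changes of 3.74, 4.82, 2.09 and 5.47, where 1.42% of all genes were. In HF against ECH Cxcl1, Pf4 and Ppbp were called (2.10, 1.67 and 3.41), where 1.86% of all genes were. Since no set holds both Ct and HF mice, the covariate fit joins them only through the 4 ECH mice, and whether the pairs of ECH mice differed by library set, by what the code shared by ECH 3 and 4 stands for or by mouse cannot be told apart.

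The receptors of these ligands were read as well. Of 8 CXC receptor genes 7 passed the filter, 0 were called in any comparison, and 3 were lower in ECH and 2 in HF than in Ct at an unadjusted p under 0.05, where 5.89% and 8.72% of all genes were. Cxcr4, the receptor of CXCL12, lay between 51.3 and 187 CPM in Ct, 45.4 and 62.1 CPM in ECH and 24.4 and 47.2 CPM in HF, with all HF libraries below Ct (log2 fold change -1.45, SE 0.36, adjusted p = 0.0984). Cxcr2, the receptor of the Cxcl1 to Cxcl3 products and of CXCL7, lay between 15.3 and 50.4 CPM in Ct, 9.46 and 15.1 CPM in ECH and 12.4 and 36.4 CPM in HF (log2 fold change -1.32 in ECH against Ct, SE 0.40, adjusted p = 0.198). Cxcr2 is a neutrophil gene, and its levels are read beside the neutrophil marker sums given above; the part of such cells was not tested. Cxcr5, the receptor of CXCL13 on B cells, had log2 fold changes of -1.95 in ECH (SE 0.66, adjusted p = 0.247) and -1.50 in HF (SE 0.65, adjusted p = 0.283) against Ct, and the B cell marker Fcmr (-2.32 and -2.24, adjusted p = 0.0202 and 0.0284) fell in the same comparisons. Cxcr3 and Cxcr6, receptors of T and NK cells, were low. Cxcr3 had means of 8.69 ± 2.91 (Ct), 5.99 ± 1.15 (ECH) and 10.6 ± 6.46 CPM (HF), and Cxcr6 had means of 3.68 ± 1.58, 1.86 ± 0.990 and 1.28 ± 0.864 CPM (SD, n = 4), with log2 fold changes against Ct of -0.99 in ECH (adjusted p = 0.639) and -1.52 in HF (adjusted p = 0.329). Beside them, 8 of 8 T and NK cell markers tested were lower in ECH and in HF than in Ct, 0 of them called, with medians of -1.30 and -1.13, and their sum lay between 21.3 and 78.9 CPM in Ct, 12.8 and 41.8 CPM in ECH and 17.1 and 33.9 CPM in HF. The part of such cells in the receptor levels was not tested.

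Of 5 other CXC chemokine genes 3 passed the filter and 0 were called. Cxcl12, made mainly by stromal cells, lay between 1.38 and 20.4 CPM over the 12 libraries, Cxcl5 reached at most 1.09 CPM and Cxcl17 at most 1.39 CPM. Cxcl15 had 0 counts in each library. The 10 genes thus held nearly all the CXC chemokine RNA read, with sums of 2552 to 4639 CPM in Ct, 1614 to 4994 CPM in ECH and 4163 to 5734 CPM in HF, against sums of 1.73 to 21.7 CPM for the other 5.

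The genes whose log2 levels ran most like those of the chemokine genes over the 12 libraries, among 11942 genes with a mean of at least 1 CPM (a limit that left out Cxcl9), were found by Pearson's r and are given as a description. For Cxcl1 they were Lmna (r = 0.96), Plk2 (0.95) and the chemokine gene Ccl7 (0.92). For Cxcl2 they were Eef1e1 (0.94), the monocyte chemoattractant gene Ccl2 (0.94) and Gpr84 (0.93). For Cxcl3 they were Plau (0.97), which encodes urokinase, Sec22b (0.92) and Snx20 (0.89). Snx20 was also among the 3 genes most like Ppbp, with Lpcat2 (0.94), Snx20 (0.94) and Mrpl48 (0.94). For Pf4 they were Calm2 (0.96), Med28 (0.95) and Mdp1 (0.94), and for Cxcl10 they were Psmg2 (0.90), Creb5 (0.89) and Il1b (0.89). Cxcl14 ran most like Sox7 (0.94), Tgm2 (0.94) and Nudt5 (0.92), and Cxcl16 most like Basp1 (0.94), Tmem132a (0.92) and Il21r (0.92). Cxcl13 had the weakest matches, with St5 at 0.79 and Mccc2 and Mbtps2 at 0.78. The points share the libraries, their groups and the inferred sets.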

How the data were processed

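RNA of FACS-sorted CD14+/CD64+ cardiac Mφ of 12 mice was sequenced after SMART-Seq v4 amplification. As the labels and methods tell, the authors trimmed reads with Trimmomatic, aligned them to mm10 (GRCm38) with TopHat2 and counted them on genes with featureCounts. The deposited values are raw counts for 24445 gene symbols. Neither software versions nor the gene annotation or strand setting were stated. Totals were 88466559 to 111180291 counts per library, without molecular identifiers.

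The analysis used edgeR 4.0.16 in R 4.3.3 (filterByExpr by group, TMM, quasi-likelihood, 1 mean per group over 12 libraries, common dispersion 0.370). Benjamini-Hochberg adjustment ran over 14608 genes, and genes were called at an FDR under 0.05 and at least 2-fold. SEs are the unshrunk log2 fold change over the root of F. Correlations used log2(CPM + 0.1) and 100000 permutations over all 12 libraries, two-sided and not restricted to group or inferred set. P values measure the spread between mice as labelled. Alternatives were DESeq2 1.42.0, RLE scaling, no filter, fits of the groups compared, a replicate block, the inferred library set, each library left out and, a choice made after seeing how many genes each library held, Ct 2 and HF 1 left out. No pair of libraries within a group agreed within counting error, the check for a library deposited more than once.

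The members, gene lists, motifs and tests were chosen with earlier results of these data known. By rule, all members were named, with up to 4 genes of each list by mean level and any called. Of these list genes, only those set beside a member's result are given by name, and the other genes enter the counts or sums of their lists. Tnf, Fcgr1, Cxcr6 and Cxcl15 are named outside the rule. Genes most like a member (3 each) were sought for members with a mean of at least 1 CPM, which leaves out Cxcl9. 1 gene is not reported here. The code was tested on simulated data. All members passed the filter, so the exact test planned for filtered members was not needed. Positions and exon lengths come from GENCODE M21 (GRCm38), promoters from RefSeq (GRCm38.p6). Figures were drawn with matplotlib 3.10.9.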

Additional observations from a re-analysis of the deposited data

Results flagged for a closer look

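Of 30 combinations of a gene and a group of 4 mice, 2 held a value that lay farther from the others than Dixon's 95% limit allows, where chance gives about 1 in 20. Cxcl9 stood at 1.94 CPM in Ct 2, against 0 to 0.126 CPM in the other Ct libraries. Pf4 stood at 2572 CPM in Ct 2, against 1365 to 1571 CPM in the other Ct libraries, just past the limit. Ct 2 also held the fewest genes of the Ct libraries (14489) and the highest Ct sums of B cell markers (506 CPM) and neutrophil markers (1816 CPM), and their part in these values was not tested.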

How the results depend on the processing

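The count of called chemokine genes stayed at 0 in each comparison with RLE scaling, without a filter, with the replicate block, without each library in turn and without Ct 2 and HF 1. DESeq2 gave 0, 1 and 0 called chemokine genes and 248, 337 and 47 called genes in ECH against Ct, HF against Ct and HF against ECH, against 52, 55 and 0 with edgeR. Fits of only the groups compared gave 1 called chemokine gene in HF against Ct and 8 called genes in ECH against Ct. The covariate for the inferred set gave 1, 4 and 3 called chemokine genes and 22, 208 and 272 called genes. Libraries of the same set alone gave 1 called gene in ECH against Ct, and 5 called chemokine genes and 370 called genes in HF against ECH. Replicate numbers did not pair the mice: same-numbered libraries of different groups had correlations of -0.0758 to 0.0833, 0 of 12 over 0.1, and a replicate block gave 22 and 18 called genes in the comparisons with Ct. Leaving out each library gave 11 to 95 called genes in ECH against Ct (11 without Ct 1, 95 without Ct 3), 15 to 103 in HF against Ct (without the same libraries) and 0 to 0 in HF against ECH. With 1 CPM added, r of Cxcl2 and Cxcl3 was 0.58 (permutation test, adjusted p = 0.0555).

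Of 590 alternative values of single genes, 28 turned sign. In ECH against Ct the covariate gave log2 fold changes of 0.085 for Cxcl2, 0.18 for Cxcl16 and 0.42 for Pf4, and the same set alone gave 0.079, 0.18 and 0.42. In HF against Ct the covariate gave 1.27 for Cxcl2 and 1.59 for Cxcl10. In HF against ECH Cxcl13 stood at -0.57 with the covariate and at -0.57 in the same set. Without Ct 2 and HF 1, Pf4 stood at 0.13 in ECH against Ct and Cxcl13 at 0.28 in HF against Ct. With each library left out, the ranges that crossed 0 were, in ECH against Ct, -0.18 to 4.07 for Cxcl9, -0.012 to 1.04 for Cxcl14, -0.30 to 0.0068 for Cxcl16 and -0.36 to 0.15 for Pf4. In HF against Ct Cxcl2 ran from -0.32 to 0.027, and in HF against ECH Cxcl3 ran from -0.011 to 0.92, Cxcl10 from -0.043 to 0.77 and Cxcl13 from -0.49 to 1.005. The cause was not tested. The common dispersion between mice was 0.370, and Cxcl9 had 0 counts in 3 libraries.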
